A study of Mus musculus with 20 samples.

Results

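The CCN genes encode secreted matricellular growth regulators, and the 5 followed here in the mouse uterus were Cyr61, Ctgf, Nov, Wisp1 and Wisp2, renamed Ccn1 to Ccn5 in current nomenclature. They were found on the arrays by gene name, with the newer symbols accepted, and were 5 of the 27962 gene names carried by 41174 non-control probes. Each had 1 probe in 1 spot, so no choice between probes had to be made. Each array held Cy3-labelled cRNA of 1 uterus on a one-colour Agilent 4x44K design. All mice were adult C57bl6/J females aged 10 weeks or more, had lost their ovaries 10 to 14 days earlier, and received 1 subcutaneous injection in 100 µl of sesame oil. The vehicle group received oil alone (3 arrays). The other 6 groups received estradiol (E2, 250 ng), bisphenol A (BPA, 750 µg) or HPTE (750 µg), the estrogenic metabolite of the pesticide methoxychlor, and were collected after 2 hr (3 arrays each) or 24 hr (3 arrays each, but 2 for E2). The vehicle arrays were all labelled 24 hr and served both times, so treatment and collection time cannot be told apart in the 2 hr comparisons with vehicle. The whole uterus was profiled, so a change in the number of cells of a type and a change in RNA per cell cannot be told apart.

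CCN proteins are built from modules, the first of which resembles the IGF binding proteins, followed by modules that bind growth factors of the TGF-beta family, sulfated glycans and, in most members, heparin. They act through integrins, syndecans and LRP receptors rather than through a receptor of their own. Cyr61 and Ctgf are textbook targets of the co-activators YAP and TAZ with TEAD factors and of SRF, and they promote adhesion, migration, angiogenesis and matrix production. Wisp1 is a Wnt-inducible member expressed by stromal cells, Nov often restrains proliferation, and Wisp2, which lacks the last module, restrains growth of smooth muscle and other cells and is an estrogen-induced gene in breast cancer cells.

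The Cyr61 probe lay on chromosome 3 at chr3:145544387-145544446 (minus strand) and the Ctgf probe at chr10:24349402-24349461 (plus strand), in the mm7 coordinates of the scanner files. Nov was read at chr15:54812769-54812828, Wisp1 at chr15:67006754-67006813 and Wisp2 at chr2:163573871-163573930, all on the plus strand. Exon and UTR positions were not assigned, since no annotation of that build was used here. For Cyr61, the most strongly induced member, RefSeq (GRCm38.p6) gave the 250 bases before the transcription start, chr3:145649986-145650235 on the minus strand. It is printed 5′ to 3′ with the letters of a TEAD site in capitals (the other strand reads GGAATG):

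Cyr61 promoter: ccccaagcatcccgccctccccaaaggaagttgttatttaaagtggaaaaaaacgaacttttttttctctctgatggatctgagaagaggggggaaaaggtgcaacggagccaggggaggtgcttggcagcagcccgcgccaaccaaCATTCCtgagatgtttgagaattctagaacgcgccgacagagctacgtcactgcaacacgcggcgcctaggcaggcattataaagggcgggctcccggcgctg

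These letters occurred 1 time, starting 103 bases before the start, and 12.6% of 32851 promoters of the same length held them on either strand. The AP-1 letters TGANTCA (in 6.75% of promoters), the letters GGTCA of an estrogen response element (35.2%) and the CArG box bound by SRF (1.47%) were not in this window. The match is a description of letters and not a shown binding site.

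The share of probes well above background was 72.7% to 81.4% per array, and 32460 probes were tested. Levels are given as log2 processed signal relative to the 75th percentile of the same array, so they can be compared between arrays but not between probes. The 6 uterine identity genes, among them Esr1, Pgr and Hoxa10, were well above background on every array. Transcripts of other tissues also varied. The summed level of 8 sperm cell markers was 6.68, 5.07 and 4.96 in the vehicle arrays against -1.65 to 3.65 in the other arrays. Prm1, Prm2, Tnp1 and Tnp2 were above background on all 20. That of 7 pancreatic acinar markers was 10.9 and 7.29 in E2 2 hr replicates 2 and 3, 2.33 and 3.65 in the 2 E2 24 hr arrays, and -1.43 to -0.55 elsewhere. Every member is therefore also given for E2 at 2 hr from replicate 1 alone. That single array has no spread of its own, and its p-values assume that it varied like the other groups. For both tissues, the part of their transcripts in the members' values was not tested.

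Of the 5 members, 3 passed the test against vehicle after E2 for 2 hr, when 28.1% of all tested probes did. After BPA for 2 hr 4 passed (49.4% of probes) and after HPTE for 2 hr all 5 (48.1%). At 24 hr the counts were 2 for E2 (63.8% of probes), 0 for BPA (13.1%) and 1 for HPTE (34.0%). No member reached an unadjusted p under 0.05 with limma after BPA for 24 hr. Cyr61, Ctgf, Nov and Wisp1 were well above background on all 20 arrays. Wisp2 was so on 14, and it entered the test through the 2 hr groups and E2 24 hr, where every array measured it. With 5 genes and such shares of all probes passing, the counts describe the family and do not set it apart. At 2 hr, Cyr61, Ctgf and Wisp2 rose and Wisp1 and Nov fell wherever a change passed the test, and at 24 hr the passing changes, of Ctgf and Nov, were all falls.

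**Figure D1:**
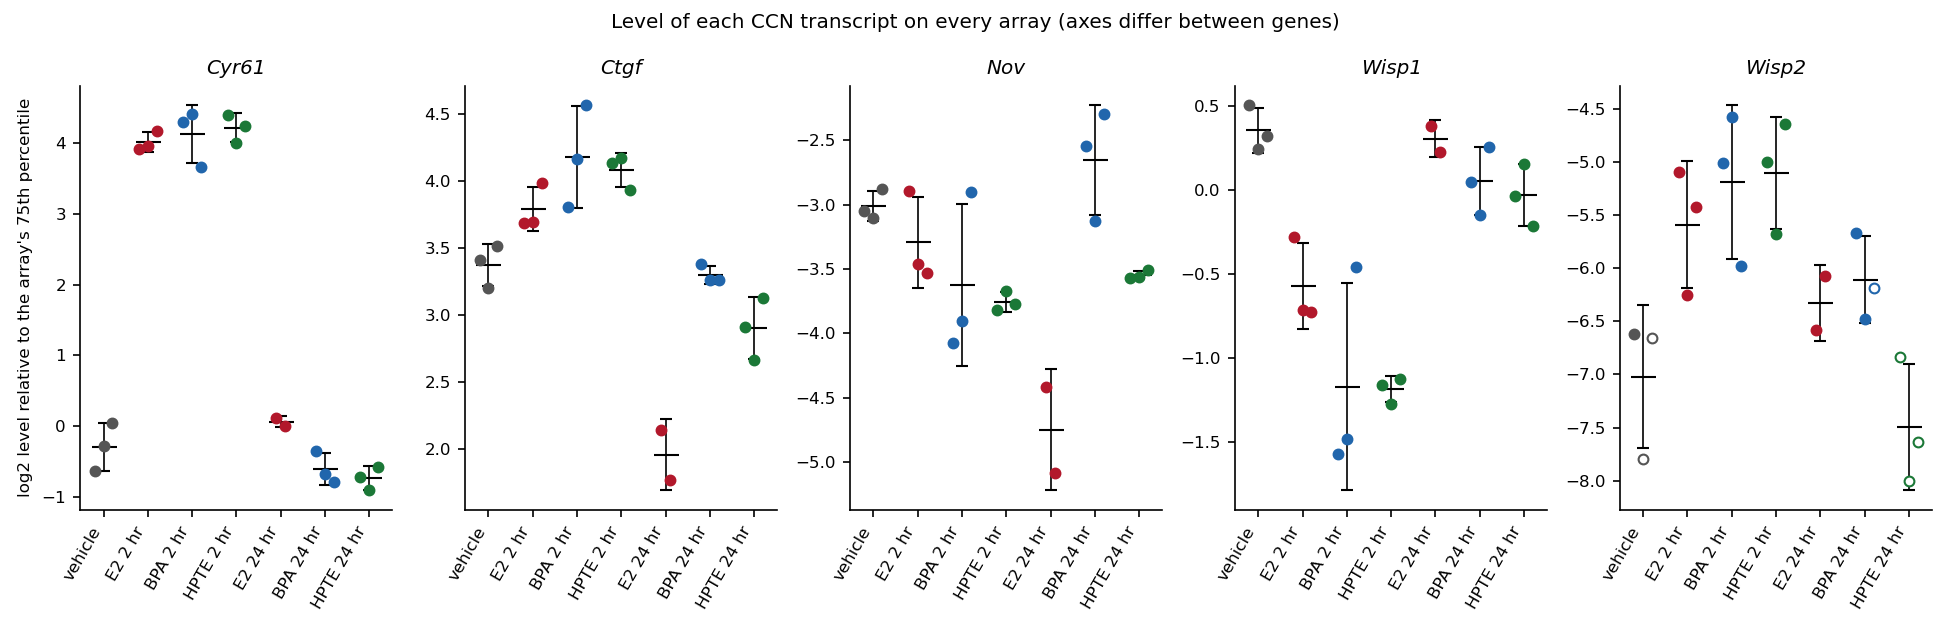
Level of each CCN member on the 20 arrays, as log2 processed signal relative to the 75th percentile of the array, by group. Points are single arrays (open where the probe was not well above background), and lines are group means with SD. Cyr61 lies between 3.65 and 4.42 on every 2 hr array and at or below 0.11 on all others, whereas Wisp1 is lowest on the 2 hr arrays.

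Cyr61, which links cells to the matrix through integrins, was the member with the largest change. Its vehicle arrays read -0.64, -0.29 and 0.04. After 2 hr it read 3.92, 3.95 and 4.17 with E2, 4.30, 4.42 and 3.65 with BPA, and 4.40, 3.996 and 4.25 with HPTE. The 9 arrays at 2 hr thus stood far above vehicle and overlapped each other. At 24 hr it read 0.11 and 0.00 with E2, -0.35, -0.68 and -0.79 with BPA, and -0.72, -0.91 and -0.58 with HPTE, all close to vehicle. The 2 hr rise was 19.9-fold with E2 (log2 4.31, 95% interval 3.88 to 4.74, adjusted p = 3.07e-09), 21.4-fold with BPA (4.42, adjusted p = 2.33e-09) and 22.8-fold with HPTE (4.51, adjusted p = 1.43e-09). Among the 32460 tested probes it was the rise of rank 56 for E2, 36 for BPA and 41 for HPTE. On the slide that held a vehicle and 1 array of each compound at 2 hr the differences were 4.59, 4.30 and 4.64, and from E2 replicate 1 alone the rise was 4.21 (adjusted p = 6.51e-06). In the order of group means, the step from E2 2 hr (4.01 ± 0.14, SD, n = 3) to E2 24 hr (0.06 ± 0.08, SD, n = 2) was the only neighbouring step past the test. At 24 hr the differences from vehicle were 0.36 (E2), -0.31 (BPA) and -0.44 (HPTE), with adjusted p of 0.181, 0.344 and 0.106.

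Ctgf, a mediator of matrix deposition downstream of TGF-beta, rose modestly at 2 hr and fell below vehicle with E2 at 24 hr. Vehicle arrays read 3.40, 3.20 and 3.51. At 2 hr it read 3.69, 3.70 and 3.98 with E2, 3.81, 4.16 and 4.56 with BPA, and 4.13, 4.17 and 3.93 with HPTE, all above vehicle. The rise passed the test for BPA (0.81, SE 0.17, adjusted p = 0.00121) and HPTE (0.71, adjusted p = 0.0031), while the E2 difference was 0.42 (adjusted p = 0.0841) and 0.32 from E2 replicate 1 alone. At 24 hr it read 2.14 and 1.77 with E2, 3.38, 3.26 and 3.26 with BPA, and 2.91, 2.66 and 3.13 with HPTE. The E2 arrays were the lowest of all, 2.67-fold under vehicle (log2 -1.42, SE 0.19, adjusted p = 1.21e-05), and on their shared slide with vehicle the difference was -1.74. The HPTE difference of -0.47 had an adjusted p of 0.0456, and this call was lost in 22 of 33 alternatives, among them leaving out vehicle replicate 1 or 3. The BPA difference was -0.07 (adjusted p = 0.831). With the arrays scaled on spike-in RNA instead, the BPA 2 hr rise was 0.89 with an adjusted p of 0.0503. Of neighbouring group means, only HPTE 24 hr and E2 24 hr differed (by 0.95, adjusted p = 0.0008).

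Wisp1, the stromal Wnt-inducible member, moved opposite to Cyr61 at 2 hr. Vehicle arrays read 0.50, 0.24 and 0.32. After 2 hr it read -0.28, -0.71 and -0.72 with E2, -1.57, -1.48 and -0.46 with BPA, and -1.16, -1.27 and -1.13 with HPTE, so that all 9 arrays lay below vehicle. It fell by 0.93 on the log2 scale with E2 (SE 0.23, adjusted p = 0.00651), by 1.52 with BPA (adjusted p = 6.52e-05) and by 1.54 with HPTE (adjusted p = 4.94e-05). BPA replicate 3 lay closer to the E2 arrays than to the other BPA arrays, and without it the BPA difference was -1.88. From E2 replicate 1 alone the E2 difference was -0.63 (adjusted p = 0.233, with the spread taken from the other groups). At 24 hr Wisp1 read 0.38 and 0.23 with E2, 0.05, -0.15 and 0.25 with BPA, and -0.04, 0.15 and -0.21 with HPTE. Of these, 1 E2 array and 1 BPA array lay within the vehicle range, while the 3 HPTE arrays and the other E2 and BPA arrays lay below it. The differences of -0.05, -0.30 and -0.39 had adjusted p of 0.88, 0.416 and 0.206. No neighbouring pair of groups in the order of Wisp1 means passed the test.

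Nov, known for restraining proliferation in several cell types, was lowest with E2 at 24 hr. Vehicle arrays read -3.05, -3.10 and -2.88, and the E2 24 hr arrays -4.42 and -5.08. The fall was 3.34-fold (log2 -1.74, SE 0.31, adjusted p = 0.000161), and -2.20 on the slide shared with vehicle. BPA at 24 hr read -2.54, -3.13 and -2.29, overlapping vehicle (0.35, adjusted p = 0.44), and HPTE at 24 hr -3.57, -3.56 and -3.51, all below vehicle (-0.54, adjusted p = 0.152). At 2 hr Nov read -2.89, -3.46 and -3.53 with E2, -4.07, -3.90 and -2.90 with BPA, and -3.82, -3.67 and -3.77 with HPTE. HPTE alone passed the test at 2 hr (-0.74, adjusted p = 0.0374), and that call was lost when any 1 of the 6 arrays compared was left out, the difference then lying between -0.79 and -0.68. The 2 hr difference was -0.28 with E2 (adjusted p = 0.498), or 0.12 from E2 replicate 1 alone, and -0.62 with BPA (adjusted p = 0.0781). BPA replicate 3 sat at the vehicle level, and without it the BPA difference was -0.98. The array was singled out by this value, so no test is read from leaving it out. HPTE 2 hr and E2 24 hr were the only neighbouring groups that differed (by 0.997, adjusted p = 0.0118).

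Wisp2, the member without the last module, was dim and rose at 2 hr. Vehicle arrays read -6.62, -7.80 and -6.65, and only 1 of these 3 was well above background. After 2 hr it read -5.09, -6.25 and -5.42 with E2, -5.01, -4.57 and -5.98 with BPA, and -5.00, -5.68 and -4.64 with HPTE, above all vehicle arrays. The rise was 1.43 with E2 (SE 0.45, adjusted p = 0.0254), 1.83 with BPA (adjusted p = 0.00317) and 1.92 with HPTE (adjusted p = 0.00229). With 2 of the 3 vehicle arrays not well above background, these sizes are uncertain, and Wisp2 was tested because the 2 hr arrays were bright enough. The E2 call was lost without vehicle replicate 2 (1.04, adjusted p = 0.124), E2 replicate 1 (1.18, adjusted p = 0.0947) or E2 replicate 3 (1.35, adjusted p = 0.0769). From E2 replicate 1 alone it was 1.93 (adjusted p = 0.059). On the slides shared with vehicle the BPA rise was 0.63 and 2.79 and the HPTE rise 0.94 and 3.16, so its size depended on the slide. Between these slides the vehicle arrays differed (-6.62 and -7.80), and so did the BPA (-5.98 and -5.01) and HPTE arrays (-5.68 and -4.64). At 24 hr Wisp2 read -6.58 and -6.07 with E2, -5.67, -6.47 and -6.19 with BPA, and -6.84, -8.01 and -7.64 with HPTE. None of the 3 HPTE 24 hr arrays was well above background, so only bounds can be given against them: Wisp2 was at least 3.58-fold higher with HPTE at 2 hr than at 24 hr, with the dim arrays set at the lowest signal that was well above background or at the probe's own value where higher. Against vehicle, E2 (0.70, adjusted p = 0.241) and BPA (0.91, adjusted p = 0.198) did not pass the test at 24 hr, and no size is given for HPTE, since it and most vehicle arrays were dim. In the order of means, no neighbouring groups passed the test.

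**Figure D2:**
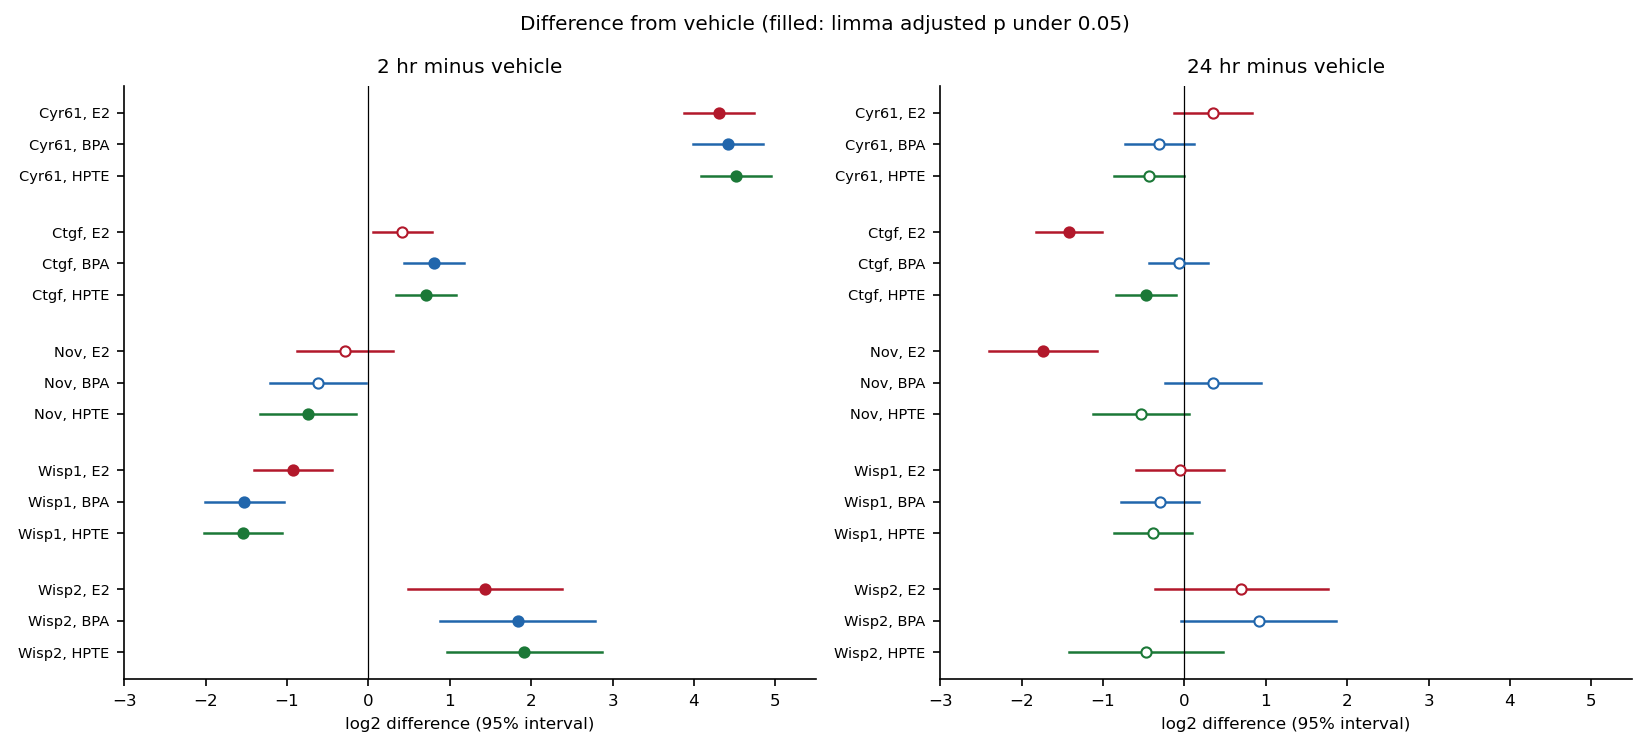
Log2 difference of each CCN member from vehicle, for the 3 compounds at 2 hr and 24 hr, with 95% intervals from the limma fit (filled where the adjusted p was under 0.05). The Cyr61 differences of 4.31 to 4.51 at 2 hr stand apart from those of the other members, which lie between -1.74 and 1.92. The Wisp2 point for HPTE at 24 hr rests on arrays that were not well above background.

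BPA and HPTE are bisphenols given at the same dose, and they differ at the bridging carbon, which carries methyl groups in BPA and a trichloromethyl group and a hydrogen in HPTE. No member separated them at 2 hr (0 of 5 passed, with 0.437% of all probes passing, and 0 had an unadjusted p under 0.05 with limma). The HPTE minus BPA difference was 0.09 for Cyr61 (95% interval -0.34 to 0.52), -0.10 for Ctgf (-0.47 to 0.26), -0.13 for Nov (-0.72 to 0.46), -0.02 for Wisp1 (-0.50 to 0.47) and 0.08 for Wisp2 (-0.87 to 1.03). These intervals leave room for log2 differences near 0.5 in Cyr61, Ctgf and Wisp1 and more in Nov and Wisp2, so they do not show that the compounds act alike. At 24 hr again 0 of 5 passed (4.08% of probes), although 3 had an unadjusted p under 0.05 with limma. All HPTE arrays lay below all BPA arrays for Ctgf (-0.40, interval -0.76 to -0.03, adjusted p = 0.198), Nov (-0.89, -1.48 to -0.30, adjusted p = 0.0816) and Wisp2 (adjusted p = 0.0894). For Wisp2, no HPTE 24 hr array was well above background, and BPA 24 hr replicate 3 was not either, so no size is given. Cyr61 differed by -0.13 (-0.56 to 0.30) and Wisp1 by -0.08 (-0.57 to 0.40). These were 10 comparisons of the pair, with p adjusted over all tested probes at each time.

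E2 was given at another dose than BPA and HPTE, so the differences from E2 are of these treatments as given. At 2 hr 0 of 5 members separated BPA from E2 (19.0% of probes passed, and Ctgf and Wisp1 had an unadjusted p under 0.05 with limma). Likewise 0 of 5 separated HPTE from E2 (16.6% of probes, and 1 unadjusted, Wisp1). Wisp1 was lower than with E2 by 0.60 for BPA (adjusted p = 0.0774) and by 0.61 for HPTE (adjusted p = 0.0776). Without BPA replicate 3, the BPA minus E2 difference was -0.95 for Wisp1 and -0.69 for Nov. That array was singled out by its own values of these genes, so no test is read from leaving it out. At 24 hr 3 of 5 members separated BPA from E2 (57.8% of probes) and 3 of 5 HPTE from E2 (48.8%). Ctgf was higher than with E2 by 1.34 for BPA (adjusted p = 2.63e-05) and 0.95 for HPTE (adjusted p = 0.0008), the latter 0.62 (adjusted p = 0.229) under spike-in scaling. Nov was higher by 2.10 for BPA (adjusted p = 3.72e-05) and 1.21 for HPTE (adjusted p = 0.00458). Cyr61 differed the other way, by -0.66 for BPA (adjusted p = 0.0194) and -0.80 for HPTE (adjusted p = 0.00833). The Cyr61 calls are less firm: without E2 24 hr replicate 2 the adjusted p was 0.1 for BPA and 0.0567 for HPTE, and the BPA call was also lost without E2 replicate 3 (0.0575) or BPA 24 hr replicate 2 (0.0509) or 3 (0.0644). The HPTE minus E2 difference of Nov was 0.87 (adjusted p = 0.0882) without E2 24 hr replicate 3, and that call was lost in 4 of 33 alternatives, with values down to 0.49.

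Between 2 hr and 24 hr of the same compound, 4 of 5 members differed with E2 (56.0% of all probes), 4 with BPA (48.4%) and 4 with HPTE (54.1%). These comparisons do not use the vehicle arrays. The HPTE count includes Wisp2, for which no HPTE 24 hr array was well above background, so only the bound given above is read from it. The Cyr61 difference, 24 hr minus 2 hr, was -4.73 with BPA (adjusted p = 9.86e-10) and -4.95 with HPTE (adjusted p = 5.55e-10), and E2 gave the step already described. For Ctgf it was -1.83 with E2, -0.88 with BPA and -1.18 with HPTE, each past the test. Wisp1 was higher at 24 hr by 0.88 with E2 (adjusted p = 0.00795), 1.22 with BPA and 1.15 with HPTE, the last 0.60 (adjusted p = 0.128) under spike-in scaling. The E2 value for Wisp1 was 0.80 (adjusted p = 0.0591) without E2 24 hr replicate 2 and 0.58 (adjusted p = 0.188) from E2 2 hr replicate 1 alone. Nov moved in opposite directions, falling by 1.46 between the times with E2 (adjusted p = 0.000914) and rising by 0.97 with BPA (adjusted p = 0.00893), whose arrays overlapped between times. The BPA value was 0.75 (adjusted p = 0.0514) without BPA 2 hr replicate 1 and lost its call in 7 of 33 alternatives, and with HPTE the difference was 0.21 (adjusted p = 0.557). Wisp2 was lower at 24 hr with HPTE, bounded as above, and differed by -0.74 with E2 and -0.92 with BPA, neither past the test. Without BPA 2 hr replicate 3, singled out after its values were seen, the BPA difference was -1.32.

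The time change itself differed from that of E2 for 3 of 5 members with BPA (50.9% of probes) and 3 with HPTE (46.1%). Between HPTE and BPA it differed for 0 (0.0863% of probes, and 1 unadjusted with limma, Wisp2). For Wisp2, no HPTE array at the later time was well above background, so no test of its HPTE time change is read here. For Nov the time change was 2.43 above that of E2 with BPA (adjusted p = 0.000183) and 1.67 above it with HPTE (adjusted p = 0.00417). For Ctgf the corresponding values were 0.95 (adjusted p = 0.00594) and 0.66 (adjusted p = 0.0486). Cyr61 showed the opposite sign, -0.77 (adjusted p = 0.0432) and -0.997 (adjusted p = 0.0135). The BPA call of Cyr61 was lost in 18 of 33 alternatives and the HPTE call of Ctgf in 22 of 33. The BPA call of Ctgf was lost in 3 of 33, with values down to 0.52, as was the HPTE call of Nov, with values down to 0.75.

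**Figure D3:**
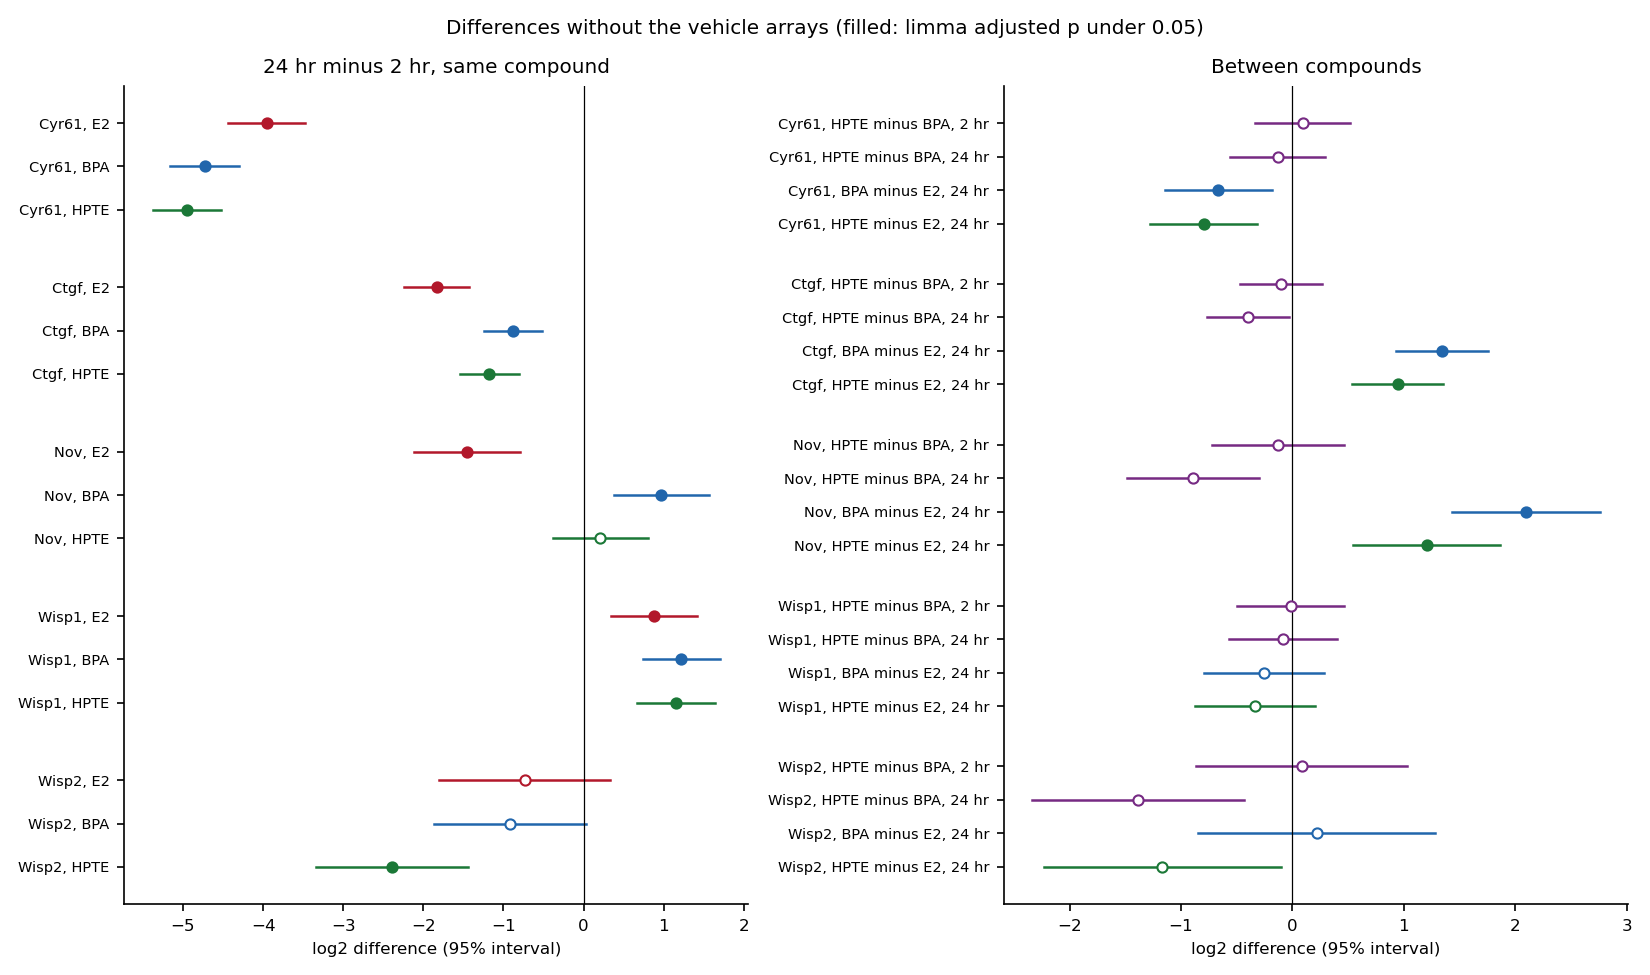
Log2 differences of the CCN members between 24 hr and 2 hr of each compound and between compounds, with 95% intervals (filled where the adjusted p was under 0.05). HPTE minus BPA is shown at both times, and BPA and HPTE minus E2 at 24 hr only. Cyr61 differs by -3.95 to -4.95 between the times, and Cyr61, Ctgf and Nov separate BPA and HPTE from E2 at 24 hr. The Wisp2 points that use HPTE at 24 hr rest on arrays that were not well above background.

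Markers of the uterine cell types also differed between groups. The summed level of 8 epithelial markers lay between 6.57 and 6.81 with vehicle and between 8.05 and 8.20 with E2 at 24 hr. That of 8 smooth muscle markers lay between 8.70 and 8.87 with vehicle and 9.36 and 9.46 with E2 at 24 hr. Stromal markers were between 8.26 and 8.39 against 8.45 and 8.52, whereas 7 endothelial markers were lower (4.36 to 4.48 against 3.95 to 4.11) and 8 leukocyte markers too (6.51 to 6.67 against 5.85 to 5.90). BPA and HPTE at 24 hr gave epithelial levels of 7.02 to 7.45. At 24 hr the stromal levels were 8.48 to 8.72 with BPA and 8.70 to 8.73 with HPTE, and the smooth muscle levels 8.96 to 9.17 and 9.23 to 9.44. Endothelial levels were 4.65 to 4.78 with BPA and 4.47 to 4.63 with HPTE, and leukocyte levels 7.17 to 7.29 and 6.45 to 7.34. At 2 hr the epithelial levels were 6.01 to 6.91, with BPA down to 6.01, and the smooth muscle levels 8.51 to 8.99. Stromal levels at 2 hr were 8.17 to 8.47 with E2, 7.91 to 8.32 with BPA (8.32 in replicate 3) and 7.97 to 8.04 with HPTE. The 6 uterine identity genes summed to 5.51 to 5.65 with vehicle. They gave 4.97 to 5.31 with E2 at 2 hr, 4.11 to 5.20 with BPA, 4.36 to 4.87 with HPTE and 5.04 to 5.48 in the 24 hr treated groups. Leukocyte markers reached 7.71 with BPA at 2 hr. The part of these shifts in the members' changes, among them Wisp1 at 2 hr and Ctgf and Nov with E2 at 24 hr, was not tested.

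**Figure D4:**
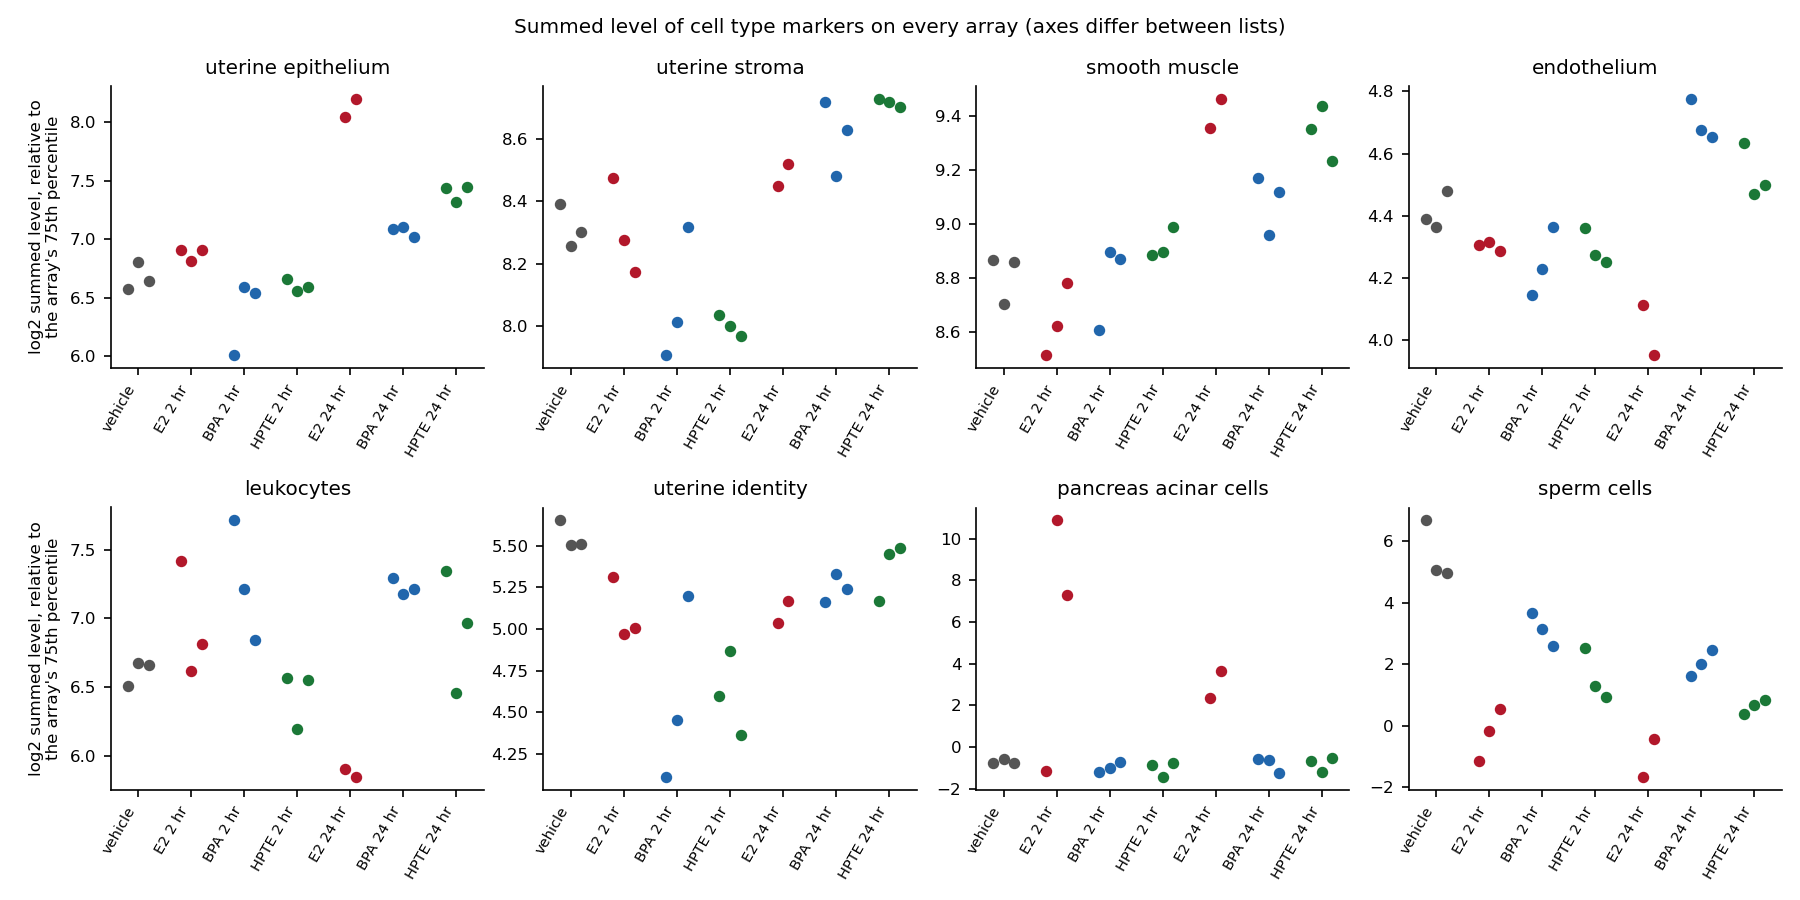
Summed log2 level of each cell type marker list on the 20 arrays, by group, relative to the 75th percentile of the array. Sperm cell markers are highest on the vehicle arrays (4.96 to 6.68) and pancreatic markers on 2 E2 2 hr arrays (7.29 and 10.9).

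The related genes of the following paragraphs are to be read against all tested probes. Of these, 11.1% rose and 17.0% fell with E2 at 2 hr, 19.3% and 30.2% with BPA, and 19.9% and 28.2% with HPTE. At 24 hr 26.3% rose and 37.6% fell with E2, 5.09% and 8.03% with BPA, and 14.9% and 19.1% with HPTE. Spike-in scaling cut the calls of nearly every list. With it no gene of the 6 lists passed with BPA at 24 hr and 1 gene per list passed with HPTE at 24 hr. The BPA counts at 24 hr, 0 to 2 per list, also fell to 0 without vehicle replicate 1, except for the IGF binding proteins.

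The TGF-beta pathway, which induces Ctgf and binds CCN modules, was represented by 13 genes. At 2 hr 4 rose with E2, 6 with BPA and 7 with HPTE, and none fell. Its median difference was 0.02, 0.29 and 0.38, beside -0.06, -0.10 and -0.09 over all tested probes. Skil, a repressor of Smad signalling and itself a Smad target, rose by 1.03 with E2, 1.46 with BPA and 1.96 with HPTE (adjusted p = 4.53e-05, 9.39e-07 and 6.29e-08). Smad7, the inhibitory Smad, rose by 0.70 with E2 (adjusted p = 0.00558). At 24 hr with E2, 8 of 13 passed (61.5%, beside 63.8% of all probes), of which 7 fell, such as the latency protein Ltbp1 (-1.10) and the co-receptor Tgfbr3 (-0.78), and Smad2 rose (0.68). Without either one of the E2 24 hr arrays 5 genes passed in place of 8, and under spike-in scaling 1. Smad7 fell at 24 hr with BPA (-0.68) and HPTE (-0.97), as did Skil with HPTE (-0.42), with the HPTE count of 2 going to 1 without vehicle replicate 1 or HPTE 24 hr replicate 2 and to 4 without BPA 2 hr replicate 1. The BPA count of 1 was 0 without BPA 24 hr replicate 1 or 3 and 2 without BPA 2 hr replicate 1 or 3. With no scaling, with spike-in scaling or from E2 replicate 1 alone, 1 gene passed with E2 at 2 hr, and under quantile normalization 1 gene fell with HPTE at 2 hr.

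Srf and Tead4 were the 2 of the 16 tested YAP, TEAD and SRF genes that rose with all 3 compounds at 2 hr. Of the list, 2 rose and 1 fell with E2 at 2 hr, 3 rose and 3 fell with BPA, and 4 rose and 3 fell with HPTE. These shares of 18.8%, 37.5% and 43.8% were below those of all probes (28.1%, 49.4% and 48.1%), and under spike-in scaling 0, 2 and 3 genes passed. Srf rose by 0.72, 1.38 and 1.64 (adjusted p = 0.000259, 4.15e-07 and 8.08e-08) and Tead4 by 1.03, 1.45 and 1.55 (adjusted p = 0.00108, 2.72e-05 and 1.21e-05). Among those lower at 2 hr were Vgll4, a TEAD co-repressor, with E2 (-0.65) and HPTE (-0.46), and Myocd, the smooth muscle SRF co-activator, with BPA (-0.97) and HPTE (-0.76). At 24 hr with E2, Tead4 was still higher (1.34) and 7 genes were lower, among them Wwtr1, which encodes TAZ (-1.39, adjusted p = 0.000127), and Myocd (-1.31). Lats1, a kinase that inhibits YAP, was lower at 24 hr with BPA (-0.79) and HPTE (-1.25), among 2 and 4 genes lower and none higher. The HPTE count was 2 without HPTE 24 hr replicate 1, and the BPA count was 0 without vehicle replicate 1 or BPA 24 hr replicate 1 or 3.

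Other YAP and TEAD targets moved in both directions at 2 hr. Of 19 tested, 3 rose and 2 fell with E2 at 2 hr, 7 and 5 with BPA and 6 and 4 with HPTE, or 26.3%, 63.2% and 52.6% beside 28.1%, 49.4% and 48.1% of all probes. The median difference was -0.03, 0.16 and 0.11, beside -0.06, -0.10 and -0.09 over all probes. Gadd45a, a stress gene, rose by 1.51, 1.04 and 1.39 with the 3 compounds, F3, the initiator of coagulation, by 0.82 with E2, and Fjx1 by 0.61 with BPA and 0.93 with HPTE. Ptpn14 fell by 0.73 with BPA and by 0.72 with HPTE. At 24 hr with E2, 11 fell and 2 rose. Crim1, a cysteine-rich BMP binding protein, fell by 1.17 (adjusted p = 9.8e-08), whereas Ankrd1, often used as a YAP readout, rose by 1.59 at 24 hr after reading -0.77 at 2 hr, and Fjx1 rose by 0.78. With BPA at 24 hr 2 fell and with HPTE 5, the BPA count being 0 or 1 without most single arrays. Under spike-in scaling the calls with BPA at 2 hr went from 12 to 1, and those with E2 at 24 hr from 13 to 5. From E2 replicate 1 alone, 2 targets passed at 2 hr in place of 5, as without E2 2 hr replicate 3, and 3 passed without any 1 vehicle array.

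Among 14 tested cell surface partners, 2 rose and none fell with E2 at 2 hr, 4 rose and 1 fell with BPA, and 5 rose and none fell with HPTE, or 14.3%, 35.7% and 35.7% in all, below the shares of all probes. With no scaling 2 fell with E2 at 2 hr, and under spike-in scaling 1, 2 and 3 passed at 2 hr and 3 in place of 6 with E2 at 24 hr. Without BPA 2 hr replicate 3, 8 passed with BPA in place of 5. Itgb3, the beta chain of the integrin that binds Cyr61 on endothelium, rose by 1.43 with E2 (adjusted p = 4e-05), 1.85 with BPA (adjusted p = 2.06e-06) and 2.09 with HPTE (adjusted p = 5.59e-07), and was still higher with E2 at 24 hr (0.79). Itga5, of the fibronectin receptor, rose by 1.33 with BPA and 1.28 with HPTE, and Notch1, which Nov binds, by 0.87 with E2. At 24 hr with E2, Itga6, of the laminin receptors, rose by 1.51 (adjusted p = 2.39e-07), and the Wnt co-receptor Lrp6 (-0.88) and the syndecan Sdc4 (-0.92) were among 4 that fell. No partner passed the test with BPA at 24 hr, and 2 fell with HPTE, Lrp6 (-0.69) and Notch1 (-0.51), of which none passed without vehicle replicate 1 or HPTE 24 hr replicate 3. The HPTE count was 1 without vehicle replicate 2, HPTE 24 hr replicate 1 or 2 and some arrays outside the comparison.

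The 8 IGF binding proteins, which share the first CCN module, held no rise at 2 hr, although 1 rose with HPTE under quantile or spike-in scaling. At 2 hr 2 fell with E2, 5 with BPA and 3 with HPTE, and under spike-in scaling no fall passed. The E2 count at 2 hr was 0 or 1 without any 1 of the 6 arrays compared, and the HPTE count was 5 without vehicle replicate 1. Igfbp3 changed most, by -3.80 with E2 at 24 hr (adjusted p = 2.55e-10) after -0.39 at 2 hr. It was also lower with HPTE at 2 hr (-0.77) and 24 hr (-0.70). Igfbp5 was lower at 2 hr with each compound (-0.48, -0.57 and -0.72) and higher at 24 hr with E2 (1.14, adjusted p = 8.75e-05) and HPTE (0.71). In all, 4 rose and 2 fell with E2 at 24 hr, 1 rose with BPA, Igfbp7 (0.39), and 2 rose and 2 fell with HPTE. The E2 24 hr rises numbered 2 with quantile normalization and 1 under spike-in scaling.

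Of 14 tested matricellular genes outside the CCN family, 1 rose and 1 fell with E2 at 2 hr, 2 rose and 3 fell with BPA, and 1 rose and 3 fell with HPTE. These small counts were unstable: without vehicle replicate 1 they were 1, 2 and 2, and without vehicle replicate 2 or any 1 E2 2 hr array the E2 count was 0, and with BPA 2 passed without BPA 2 hr replicate 1 and 3 without replicate 2. At 24 hr with E2, 4 rose and 5 fell. Sparc, a collagen-binding protein, rose at 24 hr by 1.66 with E2 (adjusted p = 2.41e-05), 0.72 with BPA (adjusted p = 0.041) and 1.21 with HPTE (adjusted p = 0.000685). Spp1, osteopontin, rose by 1.86 with E2 at 24 hr (adjusted p = 0.0278), by 1.85 with E2 at 2 hr (adjusted p = 0.0358) and by 1.96 with BPA at 24 hr (adjusted p = 0.0483). Its E2 2 hr call was among those lost above, and its BPA call was lost without vehicle replicate 1 or 2, when the BPA 24 hr count was 0. Thbs1, the thrombospondin that activates latent TGF-beta, fell by 2.17 with E2 at 24 hr and by 1.31 with HPTE at 24 hr (adjusted p = 3.43e-05 and 0.00328). The testican Spock2 fell by 2.17 with E2 at 24 hr (adjusted p = 1.54e-08), and its 2 hr differences were -0.43 with E2, -0.53 with BPA and -0.48 with HPTE. Smoc1 rose at 2 hr with BPA (1.03) and HPTE (1.10).

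**Figure D5:**
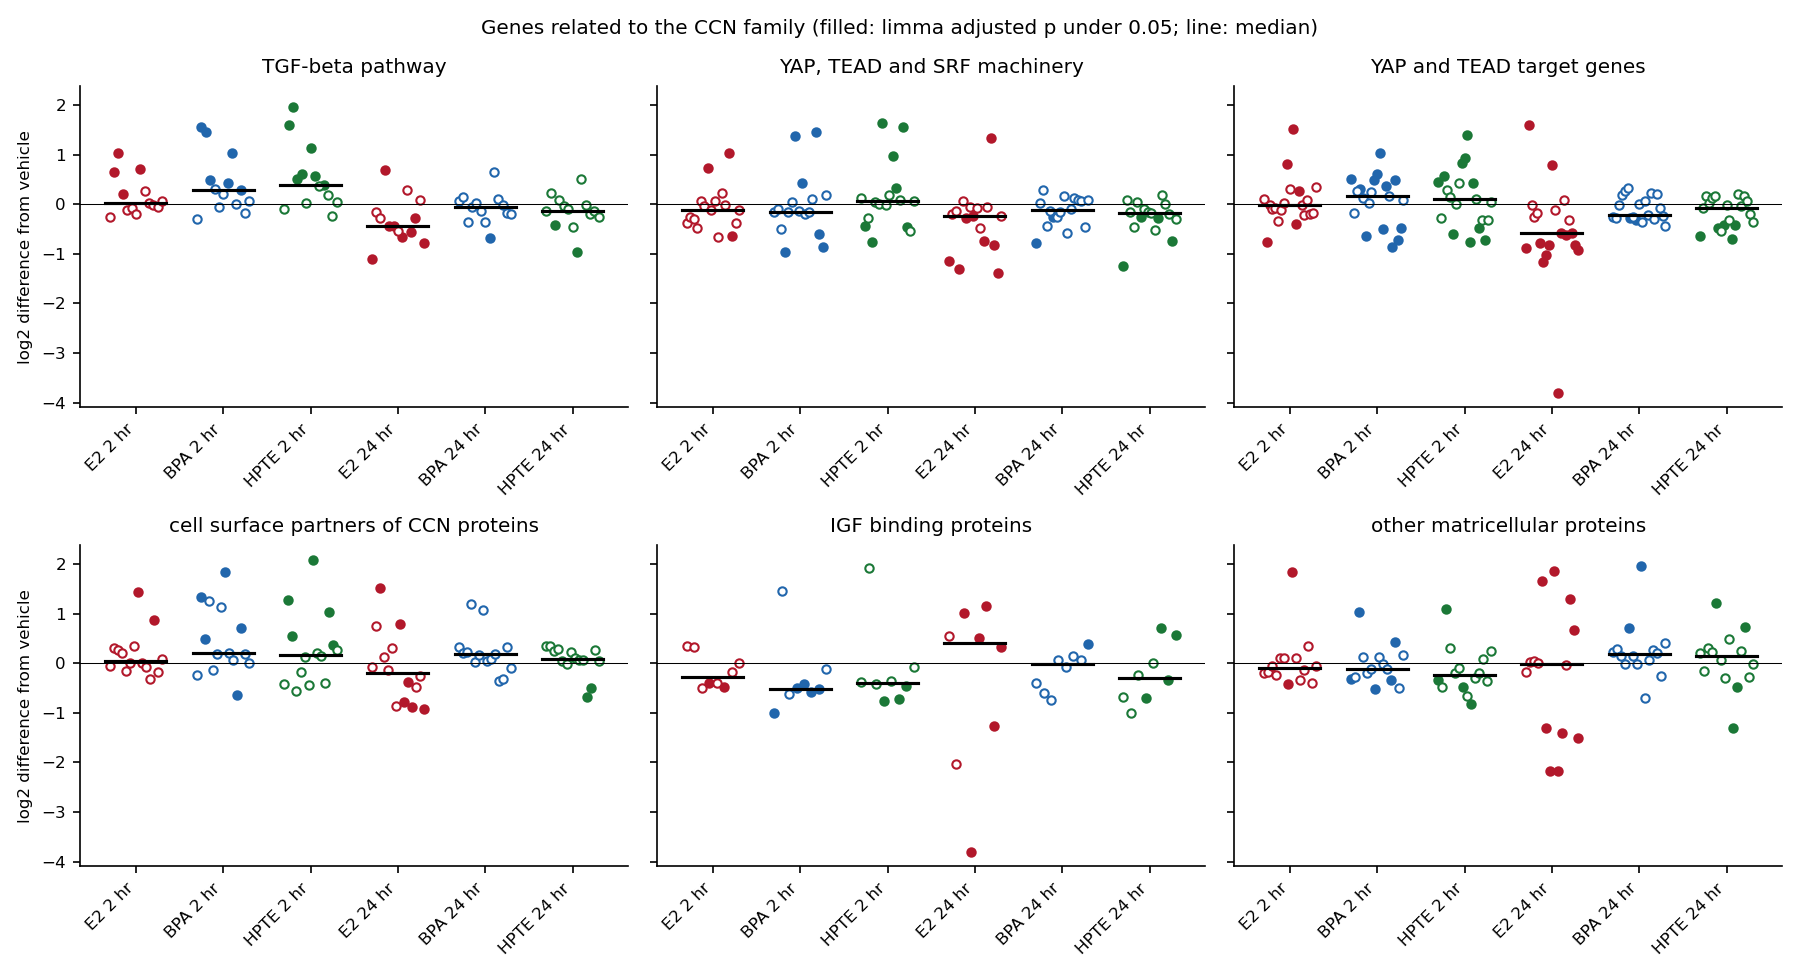
Log2 difference from vehicle of each tested gene in the related gene lists, for the 3 compounds at 2 hr and 24 hr. Points are filled where the limma adjusted p was under 0.05, and lines are medians. Among filled points, the TGF-beta list has rises without falls at 2 hr (4, 6 and 7 of 13) and 7 falls with E2 at 24 hr.

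Genes whose levels followed a member most closely over the 20 arrays were found among all tested probes by Pearson correlation, which here mainly traces the group means. For Cyr61 they were the AP-1 component Fosl2 (r = 0.995), Axud1 (0.991), the polo-like kinase Plk3 (0.989) and the oxytocin receptor Oxtr (0.988). For Ctgf they were Crem, a cAMP-responsive transcription factor (0.965), Plekhm2 (0.964), Timp3, a metalloproteinase inhibitor (0.960), and Wdr33 (0.952). Nov was followed by the secreted Wnt inhibitor Sfrp1 (0.950), Fmo2 (0.936), Itgbl1 (0.931) and Igfbp6 (0.918). Wisp1 was followed by Pmp22 (0.964), Mid1ip1 (0.961), Trib2 (0.961) and Zcchc5 (0.955). The closest for Wisp2 were Ninj1 (0.868), Eif1 (0.860), Chst8 (0.855) and the cytokine Il6 (0.855). Among the members themselves, Cyr61 correlated with Ctgf at 0.73, with Wisp2 at 0.79 and with Wisp1 at -0.87 over the 20 arrays that all share these groups. After the group means were taken out, Nov and Wisp1 correlated at 0.85 and Cyr61 and Wisp1 at -0.67. BPA 2 hr replicate 3 weighs in both values, which were not recomputed without it. It lay apart from the other BPA 2 hr arrays for Nov (-2.90 against -4.07 and -3.90) and Wisp1 (-0.46 against -1.57 and -1.48). For Cyr61 it read 3.65 against 4.30 and 4.42.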

How the data were processed

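Each of the 20 arrays was labelled as 1 uterus of 1 group, so replicates are separate animals; groups came from the sample titles. Per the labels, 500 ng RNA was labelled with Cy3 and scanned data were extracted by the submitters with Agilent Feature Extraction 9.5. The authors' deposited intensity values are its background-subtracted processed signals (45018 spots, 1639 of them controls, on each array), and the deposited value table of the series held the same numbers. Here outlier spots (46 to 134 per array) were left out, spots of a probe were averaged, and log2 intensity minus the array's 75th percentile (a signal of 1320 to 2046) was analysed. Probes were tested if all arrays of some group read them well above background and no more than 2 arrays lacked them, which left 32460. No member's spot was saturated. Precision is limited by the number of arrays, 2 or 3 per group.

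All 7 groups were fitted in 1 means model with limma 3.58.1 (R 4.3.3; loading in Python 3.11.15). Tests were two-sided, with Benjamini-Hochberg adjustment over all tested probes within each of 18 comparisons and a threshold of 0.05. The fit was tested on simulated data. For each gene of the related lists the brightest probe was used, and text names at most the 2 largest rises and 2 largest falls per list and comparison, and 4 genes most like each member. A gene of the TGF-beta list that this rule selects is not reported here. Summed marker levels are log2 of the summed linear signal. The members, lists and markers were chosen with earlier results of these data known. RefSeq symbols (GRCm38.p6) matched 5 of 5 members, and promoters were listed there for 1 of 5. Alternatives covered background correction, scaling, filters, blocks, thresholds, groups fitted and left-out arrays. E2 2 hr from replicate 1 alone was added after seeing the data, and BPA 2 hr replicate 3 was singled out after seeing them as well.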

Additional observations from a re-analysis of the deposited data

Results flagged for a closer look

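The time change from 2 hr to 24 hr differed between compounds by an interaction term in limma for 3 members. For Nov it was 2.43 above that of E2 with BPA (adjusted p = 0.000183) and 1.67 above it with HPTE (adjusted p = 0.00417). For Ctgf the differences were 0.95 with BPA (adjusted p = 0.00594) and 0.66 with HPTE (adjusted p = 0.0486). For Cyr61 they were -0.77 with BPA (adjusted p = 0.0432) and -0.997 with HPTE (adjusted p = 0.0135). The Cyr61 call with BPA was lost in 18 of 33 alternatives, the Ctgf call with HPTE in 22, the Ctgf call with BPA and the Nov call with HPTE in 3 each, and the Cyr61 call with HPTE in 1. E2 was given at another dose, and its 24 hr group held 2 arrays. No group held enough arrays for a check of single arrays far from the rest.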

How the results depend on the processing

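Over the alternatives run, 2952 values of the members' 18 comparisons were recomputed. Of these, 2799 kept their side of the threshold, 116 lost the call and 37 gained it. No called value turned sign, but 43 uncalled values did. The Cyr61 rises at 2 hr and the Ctgf and Nov falls with E2 at 24 hr kept their call in all 33. Against vehicle, the median of all probes, -0.15 for E2 at 24 hr and within 0.10 of 0 otherwise, lay between -0.29 and 0.05 with no scaling and between -0.36 and 0.15 with spike-in scaling, so small changes depend on the scaling. Dim Wisp2 was not tested under the stricter filter, and another probe could not be tried because each member had 1. The causes of the changes were not tested.

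The count of members past the threshold with HPTE at 24 hr was 0 with no scaling, spike-in scaling, the replicate block, no filter on dim probes, unadjusted p under 0.001, without the 2 arrays scanned on the later day, and with E2 2 hr from replicate 1 alone. The last setting left 1 member past it for E2 at 2 hr. The Ctgf difference with HPTE at 24 hr lost its call at -0.59 (no scaling), -0.77 (spike-in), -0.44 (slide block), -0.35 (without the later day) and -0.47 (no filter, p under 0.001, only the groups compared, E2 replicate 1 alone). Nov with HPTE at 2 hr lost it at -0.30 (normexp), -0.47 (quantile), -0.60 (no scaling), -0.50 (spike-in), -0.60 (slide) and -0.74 (p under 0.001). Wisp2 with E2 at 2 hr lost it at 1.36 (spike-in), 1.22 (slide), 1.43 (p under 0.001, only the groups compared) and 1.93 (E2 replicate 1 alone), and Wisp1 at -0.63 in the last. Ctgf with BPA at 2 hr was 0.89 under spike-in scaling. Calls were gained by Wisp2 with E2 at 24 hr (1.39, quantile) and Nov with HPTE at 24 hr (-0.92 with slide and -0.54 with only the groups compared).

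Replicate numbers did not pair the samples: deviations of same-numbered arrays correlated between -0.36 and 0.33 (median -0.05, 57 pairs). Those of arrays on the same slide correlated between -0.14 and 0.51 (median 0.11, 25 pairs), against a median of -0.03 for arrays on different slides (146 pairs). With the replicate number as a block, the Ctgf difference with HPTE at 24 hr stayed -0.47 with an adjusted p of 0.0538, and 0 members passed in that comparison.

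Leaving out 1 array at a time, the HPTE 24 hr count lay between 0 and 2, Nov with HPTE at 2 hr between -0.79 and -0.68, Cyr61 with HPTE at 24 hr between -0.61 and -0.27, Ctgf with HPTE at 24 hr between -0.58 and -0.35, and Wisp2 with E2 at 2 hr between 1.04 and 1.77. Ctgf with E2 at 2 hr lay between 0.32 and 0.49, Nov with BPA at 2 hr between -0.98 and -0.39, and Wisp1 with HPTE at 24 hr between -0.48 and -0.30.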
